A study of Homo sapiens with 4 samples.

Results

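The genes described here encode the subunits of the Polycomb complexes, and 36 of them were examined among the 58037 genes of the count table. They were chosen by name: 13 genes of Polycomb repressive complex PRC2 (core and accessory subunits), 20 of PRC1 and 3 of the deubiquitinase complex PR-DUB. Each of the 36 symbols matched 1 Ensembl identifier, and all 36 passed the filter on low counts and were tested among 15718 genes. OCI-AML3 is an acute myeloid leukemia (AML) cell line with a heterozygous NPM1 mutation (mtNPM1, which sends the NPM1 protein to the cytoplasm). It also has a heterozygous DNMT3A mutation and a homozygous NRAS mutation, and all 4 libraries came from this line. RNA-Seq was done 72 hours (3 days) after transfection with a control guide RNA (sgNeg, 2 libraries) or with sgNPM1A, a guide RNA for CRISPR-Cas9 editing of mtNPM1 (2 libraries). The cells were a transfected population, and no edited clone is named in the sources used here; the share of edited cells in each library was not measured here. In such bulk RNA, fewer cells that express a gene and less RNA of that gene per cell cannot be told apart.

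PRC2 places methyl groups on histone H3 (the mark H3K27me3) through its catalytic subunits EZH1 and EZH2, and accessory subunits bring it to CpG-rich DNA. PRC1 attaches ubiquitin to histone H2A (H2AK119ub) through RING1 or RNF2 paired with a PCGF protein; canonical PRC1 also holds a CBX protein that reads H3K27me3 and a PHC protein, while variant PRC1 holds RYBP or YAF2 instead. PR-DUB removes the ubiquitin mark. In myeloid cells these complexes keep developmental and cell-cycle inhibitor genes silent, and genes such as ASXL1, BCOR and EZH2 are recurrently mutated in myeloid neoplasms.

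Total counts per library lay between 25069484 and 28276391, of which the 36 Polycomb genes took between 0.210% and 0.243%. Counts of single Polycomb genes ran from 65 to 5442 per library, far above the limit of 3 counts, which is worth 0.106 to 0.120 CPM (the unit of all levels below, a count relative to the TMM-scaled library total). NPM1 itself (ENSG00000181163.13, chr5:171387116-171410900, GRCh38) read 1319 and 1385 CPM in the sgNeg libraries and 1189 and 1132 CPM in the sgNPM1A libraries, a log2 fold change of -0.22 (SE 0.07, edgeR adjusted p = 0.0360) that did not reach the fold threshold used below. The gene count does not separate mutant from wild-type NPM1 transcripts. Of the myeloid markers, CD33, PTPRC, SPI1 and ANPEP were plainly present and KIT and CD34 were nearly absent (3 and 13 counts over the 4 libraries), while CD3D, CD3E, MS4A1, HBB and EPCAM had 0 counts in every library.

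Of the 36 Polycomb genes, 10 fell and 3 rose after sgNPM1A, and 23 were not called. A gene was called at an adjusted p under 0.05 in edgeR's quasi-likelihood test with a log2 fold change of at least 0.32 in size (the fold threshold), as it is throughout. The genes that fell were BCOR, PHC1, CBX2, PHC2, PCGF2, YAF2, PCGF6, PCGF3, EPOP and PHF1, and the genes that rose were MTF2, PCGF1 and CBX6. Among all tested genes 20.8% were called, 10.5% higher and 10.3% lower. Against this the Polycomb genes were called in 36.1% of cases, 8.33% higher and 27.8% lower. The median log2 fold change of the Polycomb genes was -0.14, beside 0.00 for all tested genes, and 25 of 36 had a negative value.

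The changes were small. Fold changes of all 36 genes lay between -0.72 and 0.43 on the log2 scale, and no Polycomb gene reached a fold of 2, a threshold that 498 genes passed upward and 502 downward. In none of the 14 alternative analyses, DESeq2 among them, did a Polycomb gene reach it. In edgeR 21 of the 36 had an unadjusted p under 0.05, as did 5896 of the 15718 tested genes. In 25 of the 36 genes (69.4%) the sgNeg and sgNPM1A libraries did not overlap, 19 lower and 6 higher after sgNPM1A, where all tested genes gave 63.1% without overlap and 31.7% without overlap and lower. The count of lower calls rested in part on 1 library: without sgNPM1A 2 it was 5 of 36 (13.9%, beside 7.50% of all genes), namely BCOR, CBX2, PHC2, YAF2 and EPOP, and the higher calls were MTF2 and CBX6. Without each of the other 3 libraries in turn it was 8 or 9. With 2 libraries a group the p-values measure only the spread between these libraries, and an exact permutation test of a single gene could not go below 0.333.

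**Figure D1:**
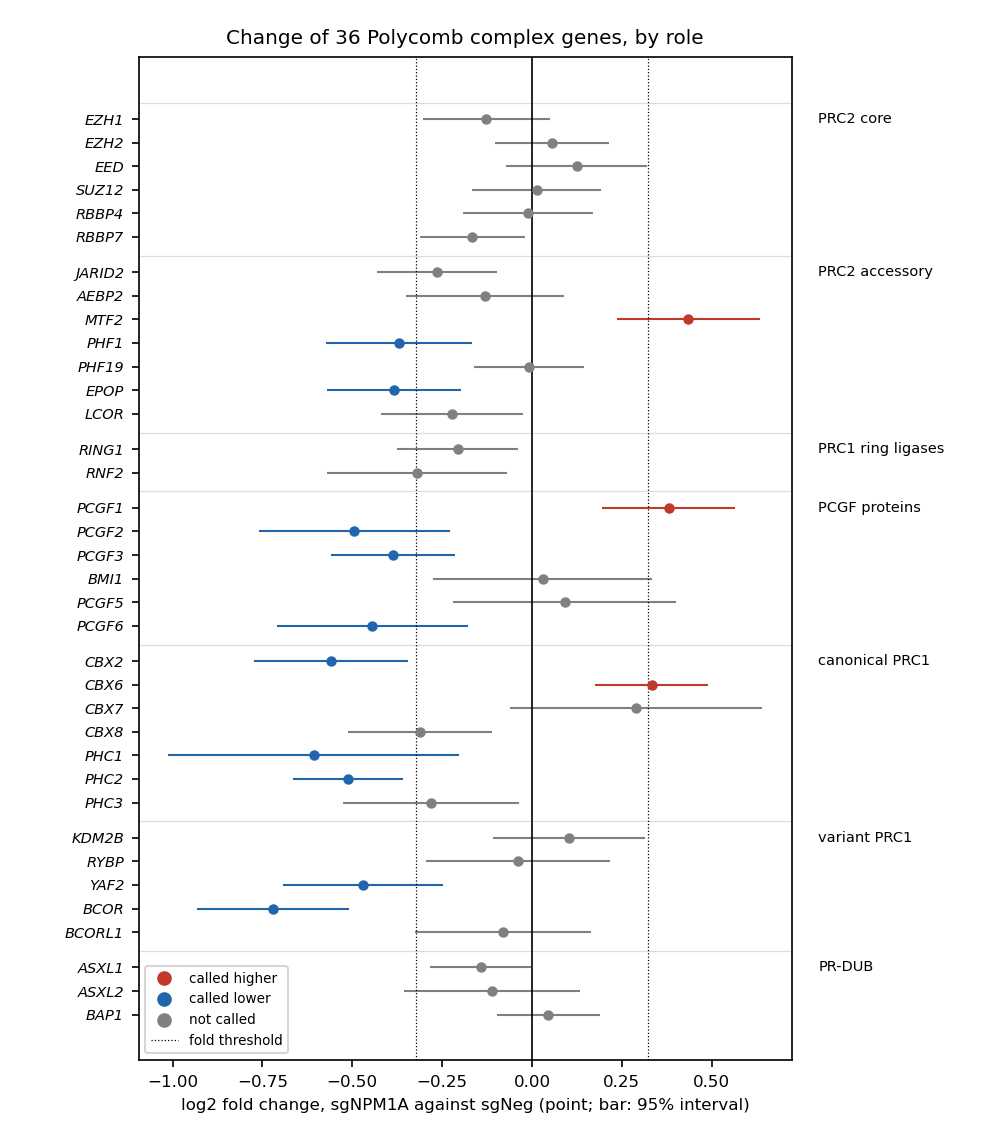
Log2 fold change of sgNPM1A against sgNeg (horizontal axis) for the 36 Polycomb genes grouped by role, with bars for the 95% interval of the edgeR fit and dotted lines at the fold threshold. All 6 PRC2 core genes and all 3 PR-DUB genes are grey (not called), while 8 of the 10 genes called lower (blue) belong to PRC1.

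The 13 calls were spread over PRC2 and PRC1. In PRC2 1 of 13 genes rose and 2 fell (median -0.13), whereas in PRC1 2 of 20 rose and 8 fell (median -0.30). The share called was 23.1% in PRC2 and 50% in PRC1, beside 20.8% of all tested genes. PR-DUB had 0 calls among its 3 genes of the 36 (median -0.11). Outside the 36, its subunit MBD6 was called lower and is described below with the other Polycomb genes. Whether the complexes differed from each other was not tested.

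Start-site sequences are shown for the 4 called genes whose window holds the E-box word CACGTG, which MYC, MAX and related proteins can bind, and for 3 PRC2 genes whose window holds the E2F-type word TTTNNCGC (N is any base). These words were searched because the study deals with MYC, E2F, MEIS1 and HOX genes. The sequences are RefSeq windows on GRCh38.p14, from 250 bases before to 50 bases after a gene's start, written 5′ to 3′ along the gene's strand, with the matched word in capitals. They were picked after the values were seen.
BCOR promoter, chrX:40177228-40177527, minus strand: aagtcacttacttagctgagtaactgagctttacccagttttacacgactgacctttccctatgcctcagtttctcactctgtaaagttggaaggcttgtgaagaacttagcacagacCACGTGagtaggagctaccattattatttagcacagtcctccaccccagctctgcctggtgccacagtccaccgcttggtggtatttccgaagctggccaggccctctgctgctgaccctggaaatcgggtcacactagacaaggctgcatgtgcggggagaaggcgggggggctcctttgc
PHC2 promoter, chr1:33431046-33431345, minus strand: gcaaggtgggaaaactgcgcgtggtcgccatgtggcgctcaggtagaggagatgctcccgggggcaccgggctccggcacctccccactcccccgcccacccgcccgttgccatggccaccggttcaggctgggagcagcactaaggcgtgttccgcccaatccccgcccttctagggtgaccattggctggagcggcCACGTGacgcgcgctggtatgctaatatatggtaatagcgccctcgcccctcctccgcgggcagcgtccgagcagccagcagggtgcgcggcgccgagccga
YAF2 promoter, chr12:42238199-42238498, minus strand: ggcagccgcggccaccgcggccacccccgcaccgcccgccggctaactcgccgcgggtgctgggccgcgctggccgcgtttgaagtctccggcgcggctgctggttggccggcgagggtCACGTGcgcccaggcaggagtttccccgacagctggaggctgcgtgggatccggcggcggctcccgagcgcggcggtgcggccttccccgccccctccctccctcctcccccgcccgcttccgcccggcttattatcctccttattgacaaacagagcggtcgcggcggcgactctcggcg
CBX6 promoter, chr22:38872167-38872466, minus strand: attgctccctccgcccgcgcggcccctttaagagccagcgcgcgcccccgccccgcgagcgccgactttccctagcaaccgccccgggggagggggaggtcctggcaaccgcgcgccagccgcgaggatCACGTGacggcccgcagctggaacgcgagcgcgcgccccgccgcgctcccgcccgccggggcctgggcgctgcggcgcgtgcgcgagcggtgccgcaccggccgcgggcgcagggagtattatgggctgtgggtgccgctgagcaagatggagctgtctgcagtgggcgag
EZH2 promoter, chr7:148884242-148884541, minus strand: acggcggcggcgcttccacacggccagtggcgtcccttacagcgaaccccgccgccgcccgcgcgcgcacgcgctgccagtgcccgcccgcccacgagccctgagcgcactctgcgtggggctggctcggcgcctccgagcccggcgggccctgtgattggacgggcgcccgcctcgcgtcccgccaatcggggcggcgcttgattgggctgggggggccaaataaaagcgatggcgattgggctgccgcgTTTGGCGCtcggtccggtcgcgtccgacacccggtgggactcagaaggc
SUZ12 promoter, chr17:31936757-31937056, plus strand: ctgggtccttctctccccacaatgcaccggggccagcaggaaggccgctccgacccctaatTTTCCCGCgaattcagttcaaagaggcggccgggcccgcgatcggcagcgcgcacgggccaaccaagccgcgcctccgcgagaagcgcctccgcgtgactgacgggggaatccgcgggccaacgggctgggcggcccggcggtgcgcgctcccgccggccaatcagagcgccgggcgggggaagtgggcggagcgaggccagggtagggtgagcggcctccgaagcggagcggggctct
MTF2 promoter, chr1:93079033-93079332, plus strand: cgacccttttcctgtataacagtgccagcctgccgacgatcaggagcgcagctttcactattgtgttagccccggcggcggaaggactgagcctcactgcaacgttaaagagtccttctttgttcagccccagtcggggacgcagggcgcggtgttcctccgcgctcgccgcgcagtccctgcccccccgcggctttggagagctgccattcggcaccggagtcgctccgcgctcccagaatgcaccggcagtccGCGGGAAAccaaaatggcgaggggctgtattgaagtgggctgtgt

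Of the 36 genes, 32 had such windows, 52 in all. The E-box word, the same on both strands, was in 7 of the 52 (13.5%), beside 7.26% of 35116 windows of the same length over all genes. The 7 genes were BCOR, PHC2, YAF2 and CBX6, shown above, with BMI1, PHC3 and RBBP4, so that 3 were genes that fell, 1 a gene that rose and 3 genes that were not called. The E2F-type word, searched on both strands, was in 8 of 52 windows (15.4%, beside 6.89% of all), those of EZH1, EZH2, SUZ12, RBBP7, AEBP2, PHF19, MTF2 and ASXL1. Of these 8 genes only MTF2 was called. A MEIS-type word, TGACAG, was in 4 windows (7.69%, beside 15.8% of all), those of EZH1, BMI1, PCGF5 and ASXL2, and a PBX-HOX-type word, TGATTNAT, was in 0 (beside 2.82% of all). No match of these words shared bases with a match of another in the 7 printed windows. The Polycomb windows were also richer in CpG, with a median of 34 CpG sites beside 14 in all windows, and both the E-box and the E2F-type words contain CpG. BCOR, PHC2 and EZH2 have 2 RefSeq windows each, and the word was in only 1 of the pair. A matched word is a run of letters and not a shown binding site.

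Among the 6 core subunits of PRC2 none was called in edgeR, 1 had an unadjusted p under 0.05 (RBBP7), and DESeq2 and limma-trend also called 0. The median log2 fold change was 0.00, from -0.17 for RBBP7 to 0.12 for EED. EZH2, the main catalytic subunit of dividing cells, read 91.2 and 83.9 CPM in sgNeg and 90.2 and 91.9 CPM in sgNPM1A. The groups overlapped, and the log2 fold change was 0.06 (95% interval -0.10 to 0.22, adjusted p = 0.616). EZH1, the catalytic subunit that persists in resting cells, read 41.0 and 43.3 CPM in sgNeg and 39.4 and 37.9 CPM in sgNPM1A. The sgNPM1A libraries were both lower than the sgNeg libraries, by a log2 fold change of -0.13 (95% interval -0.30 to 0.05, adjusted p = 0.279). The intervals of both enzymes lie inside the fold threshold in either direction. SUZ12 (0.01) and EED (0.12), which with an EZH protein make up the catalytic core, and the histone-binding proteins RBBP4 (-0.01) and RBBP7 (-0.17, adjusted p = 0.0903) also missed the threshold. The signs of EZH2, SUZ12 and RBBP4 changed when single libraries were left out. For SUZ12 7.65% and for RBBP4 4.91% of their 50-base transcript words occur in other genes, among them pseudogenes of each, so a small part of their counts is uncertain.

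On a per-length scale (CPM per kb of the canonical transcript), EZH2 stood at 33.0 and EZH1 at 9.10 in sgNeg, and at 34.3 and 8.33 in sgNPM1A. The EZH2 to EZH1 ratio was 3.88 and 3.38 in the sgNeg libraries and 4.00 and 4.24 in the sgNPM1A libraries. The sgNPM1A ratios were both higher, and the difference between them and the nearest sgNeg library was smaller than the gap between the sgNeg libraries.

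The accessory subunits of PRC2 moved apart. MTF2, PHF1 and PHF19 are the Polycomb-like proteins, alternative subunits that tether PRC2 to CpG-rich DNA. MTF2 (ENSG00000143033.17, chr1:93079283-93139076) rose from 24.6 and 27.3 CPM to 36.2 and 34.0 CPM. Both sgNPM1A libraries were above both sgNeg libraries, with a log2 fold change of 0.43 (SE 0.09, adjusted p = 0.00472), a rise that was called in all 14 alternative analyses. PHF1 (ENSG00000112511.17, chr6:33410412-33416439) fell from 79.0 and 89.9 CPM to 70.4 and 60.3 CPM. Its groups did not overlap either, and the log2 fold change was -0.37 (SE 0.09, adjusted p = 0.0129). The PHF1 call was lost without sgNeg 2 (-0.27, adjusted p = 0.0625) and without sgNPM1A 2 (-0.26, adjusted p = 0.179). PHF19 read 130.0 CPM on average in sgNeg and 129.2 CPM in sgNPM1A, a log2 fold change of -0.01 (95% interval -0.16 to 0.14).

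Per length, MTF2 was the scarcest of these 3 in every library. It made up 8.22% and 8.75% of the summed CPM per kb of the 3 genes in the sgNeg libraries and 12.7% and 12.4% in the sgNPM1A libraries. The share of PHF1 was 47.6% and 51.8% in sgNeg and 44.3% and 39.8% in sgNPM1A. The shares of MTF2 and PHF1 did not overlap between the groups, while those of PHF19 did (44.2% and 39.4% beside 43.0% and 47.8%).

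EPOP, which joins PRC2 to the elongin BC complex, was the other accessory gene to fall. EPOP (ENSG00000273604.1, chr17:38671703-38674957) read 42.1 and 38.4 CPM in sgNeg and 30.7 and 31.1 CPM in sgNPM1A. The groups did not overlap, and the log2 fold change was -0.38 (SE 0.08, adjusted p = 0.00655). Its call was lost without sgNeg 1 (-0.31, adjusted p = 0.0243, under the fold threshold) and without sgNPM1A 1 (-0.37, adjusted p = 0.0525). JARID2, the subunit that recognizes ubiquitylated H2A, passed the p threshold but not the fold threshold (122.0 ± 10.5 CPM in sgNeg and 101.6 ± 1.99 in sgNPM1A, SD, n = 2; log2 fold change -0.26, adjusted p = 0.0249). JARID2 was called lower in 1 alternative, without sgNeg 2. AEBP2, its partner, had -0.13 (adjusted p = 0.380). LCOR, whose locus also encodes the PRC2 subunit PALI1, had -0.22 (adjusted p = 0.0920).

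**Figure D2:**
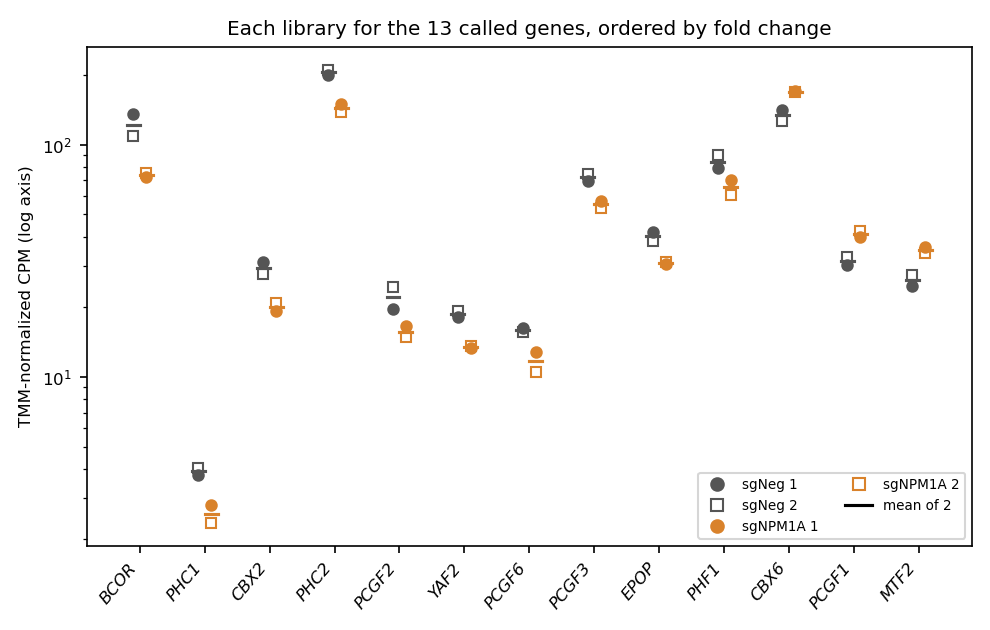
TMM-normalized CPM on a log axis for the 13 called Polycomb genes, ordered by fold change, in sgNeg 1 and 2 (grey) and sgNPM1A 1 and 2 (orange), with a short line at each mean of 2. No gene has overlapping groups, which follows largely from picking the genes by a test between these same libraries. Levels run from 2.34 CPM for PHC1 in sgNPM1A 2 to 210.1 CPM for PHC2 in sgNeg 2.

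Neither ring ligase of PRC1 was called, in edgeR, DESeq2 or limma-trend. Both had an unadjusted p under 0.05 in edgeR, as did 5896 of the 15718 tested genes. RING1 read 69.5 and 75.3 CPM in sgNeg and 64.6 and 60.9 CPM in sgNPM1A (log2 fold change -0.21, 95% interval -0.38 to -0.04, adjusted p = 0.0708). RNF2 (RING1B) read 17.2 and 15.1 CPM in sgNeg and 12.3 and 13.5 CPM in sgNPM1A (log2 fold change -0.32, 95% interval -0.57 to -0.07, adjusted p = 0.0615). For both genes each sgNPM1A library was below each sgNeg library. RNF2 lay at the edge of the threshold and was called lower in 3 alternatives: library size only, no filter on low counts and without sgNeg 2. Per length RING1 was the more abundant ligase throughout, at 41.6 CPM per kb in sgNeg beside 4.73 for RNF2. The RING1 to RNF2 ratio was 7.93 and 9.76 in sgNeg and 10.3 and 8.80 in sgNPM1A, which overlap.

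The PCGF proteins, each of which defines a separate PRC1 assembly around the ring ligase, changed in opposite directions: 1 of the 6 rose, 3 fell and 2 were not called. Calls made up 66.7% of this family, beside 20.8% of all tested genes. PCGF1 (ENSG00000115289.13, chr2:74505043-74507695), the PCGF protein of the BCOR-containing variant complex, rose from 30.4 and 32.8 CPM to 40.0 and 42.2 CPM. The groups did not overlap, the log2 fold change was 0.38 (SE 0.08, adjusted p = 0.00666), and the call was lost without sgNPM1A 2 (0.34, adjusted p = 0.0829). PCGF3 (ENSG00000185619.18, chr4:705832-770089), which pairs with casein kinase 2 in a variant complex, read 69.3 and 74.9 CPM in sgNeg and 57.3 and 53.1 CPM in sgNPM1A. It fell by 0.39 on the log2 scale (SE 0.08, adjusted p = 0.00410), a call also lost without sgNPM1A 2 (-0.33, adjusted p = 0.0759). Both PCGF3 libraries of sgNPM1A were under both of sgNeg.

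PCGF2 (MEL18; ENSG00000277258.4, chr17:38733898-38749792), a PCGF protein of canonical PRC1, read 19.6 and 24.4 CPM in sgNeg and 16.5 and 14.8 CPM in sgNPM1A. It fell by 0.49 on the log2 scale (SE 0.12, adjusted p = 0.0113), with no overlap, and the call was lost without sgNeg 2 (-0.33, adjusted p = 0.0671) and without sgNPM1A 2 (-0.42, adjusted p = 0.0543). PCGF6 (ENSG00000156374.14, chr10:103302796-103351140), the PCGF protein of the complex with MGA and E2F6, read 16.2 and 15.5 CPM in sgNeg and 12.8 and 10.5 CPM in sgNPM1A. Its log2 fold change of -0.44 (SE 0.12, adjusted p = 0.0193) was lost as a call without sgNeg 1 (adjusted p = 0.0632) and without sgNPM1A 2 (adjusted p = 0.238). BMI1, the better known PCGF protein of canonical PRC1 and a self-renewal factor of blood stem cells, stood at 6.18 and 6.31 CPM on average, a log2 fold change of 0.03 (95% interval -0.27 to 0.34). PCGF5 had 0.09 (95% interval -0.22 to 0.40), so the data for BMI1 and PCGF5 leave room for a change past the fold threshold. Exons of PCGF2 overlap CISD3 on the opposite strand over 48.5% of their bases, those of PCGF3 overlap PCGF3-AS1 over 22.0%, and 9.98% of the words of PCGF6 and 20.8% of those of BMI1 occur elsewhere (for BMI1 in the readthrough gene COMMD3-BMI1). The strand setting and counting program of the count table are not given in the sources used here. The PCGF2 and PCGF3 values could therefore include reads of the partner on the opposite strand. For PCGF6 and BMI1 it is not known how reads of the shared words were counted, so their levels are uncertain.

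The make-up of the PCGF family differed between the groups. On the per-length scale PCGF1 was the most abundant of the 6 and PCGF5 the least, in the order PCGF5, BMI1, PCGF6, PCGF2, PCGF3, PCGF1 in sgNeg. PCGF1 took 51.9% and 51.8% of the summed CPM per kb in the sgNeg libraries and 63.0% and 66.3% in the sgNPM1A libraries. PCGF3 took 21.2% and 21.1% in sgNeg and 16.1% and 14.9% in sgNPM1A. Both shares lay apart between the groups, as did those of PCGF2 and PCGF6, and those of BMI1 and PCGF5 overlapped. A share depends on the transcript length used. With the union of all exons as length, chosen as an alternative after the data were seen, the mean PCGF1 share was 42.8% in sgNeg and 55.8% in sgNPM1A, and the order of the 6 genes was the same.

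**Figure D3:**
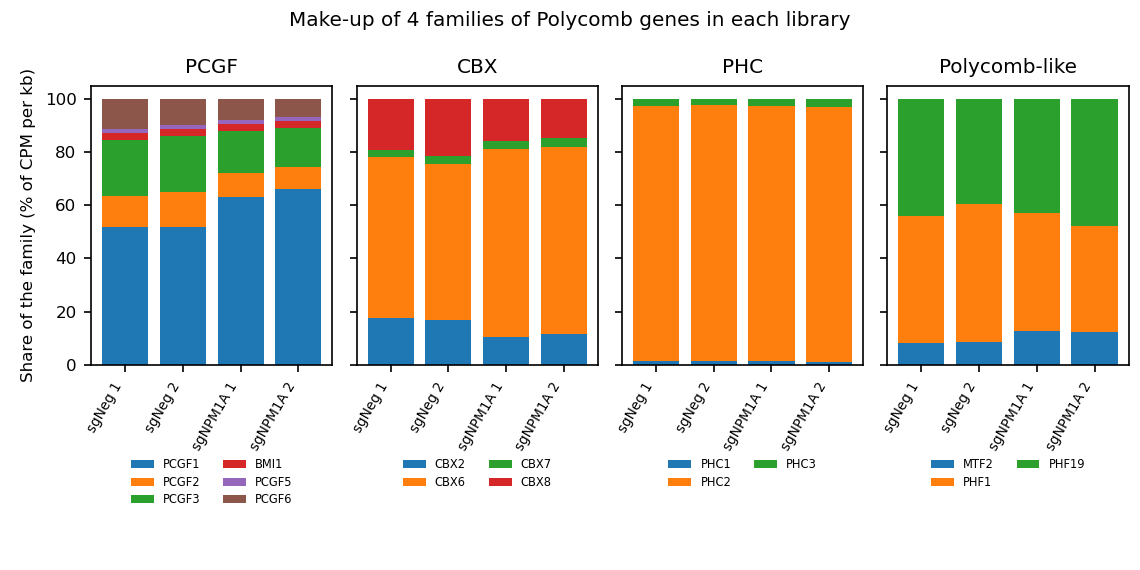
Share of each gene in the summed CPM per kb of its family (vertical axis, percent) in each of the 4 libraries. The families are PCGF, CBX (only the 4 genes among the 36), PHC and Polycomb-like. PCGF1 takes 51.8% to 51.9% of its family in sgNeg and 63.0% to 66.3% in sgNPM1A, CBX2 takes 17.5% and 16.8% in sgNeg and 10.5% and 11.4% in sgNPM1A, and PHC2 holds over 95% in every library.

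The CBX and PHC subunits that set canonical PRC1 apart held 3 of the genes that fell and 1 that rose among 7. Calls made up 57.1% of them, beside 20.8% of all tested genes. CBX proteins bind H3K27me3 through a chromodomain. CBX2 (ENSG00000173894.10, chr17:79777311-79787983) read 31.2 and 27.7 CPM in sgNeg and 19.2 and 20.7 CPM in sgNPM1A. It was lower in both sgNPM1A libraries, with a log2 fold change of -0.56 (SE 0.10, adjusted p = 0.00152), and it was called in all 14 alternatives. CBX6 (ENSG00000183741.11, chr22:38861422-38872216) read 141.0 and 126.4 CPM in sgNeg and 169.3 and 167.7 CPM in sgNPM1A. The log2 fold change was 0.33 (SE 0.07, adjusted p = 0.00556), just above the fold threshold. CBX6 fell under that threshold with library size only (0.29), in limma-trend (0.32) and without sgNeg 2 (0.26), while its adjusted p stayed under 0.05 in each.

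CBX8 (28.3 ± 0.65 CPM in sgNeg and 22.8 ± 1.49 in sgNPM1A, SD, n = 2) had an adjusted p of 0.0267 with a log2 fold change of -0.31, just short of the fold threshold. It was called lower in 2 of the 14 alternatives, library size only and without sgNeg 1. CBX7, the CBX protein tied to self-renewal of blood stem cells, was the scarcest of the 4 CBX genes per length and read 3.82 and 4.32 CPM in sgNeg and 4.92 and 5.04 CPM in sgNPM1A. The groups did not overlap, but the log2 fold change of 0.29 had a 95% interval of -0.06 to 0.64 (adjusted p = 0.213), and exons of CBX7 overlap a long noncoding RNA on the opposite strand over 17.9% of their bases. CBX2 and CBX8 lie 4.15 kb apart on chromosome 17.

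Among the 4 CBX genes of the 36, CBX6 was the most abundant per length. It stood at 22.1 CPM per kb in sgNeg and 27.8 in sgNPM1A. CBX genes outside the 36 were left out of this ranking and of the shares below. The CBX6 to CBX2 ratio of CPM per kb was 3.46 and 3.49 in the sgNeg libraries and 6.73 and 6.19 in the sgNPM1A libraries. Both sgNPM1A ratios were well above both sgNeg ratios. Of the summed CPM per kb of these 4 genes, CBX2 took 17.5% and 16.8% in sgNeg and 10.5% and 11.4% in sgNPM1A. CBX6 took 60.7% and 58.7% in sgNeg and 70.5% and 70.7% in sgNPM1A.

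The PHC proteins polymerize through their SAM domains and cluster PRC1 on chromatin. PHC2 (ENSG00000134686.17, chr1:33323626-33431095) read 199.5 and 210.1 CPM in sgNeg and 149.5 and 137.8 CPM in sgNPM1A. The drop was a log2 fold change of -0.51 (SE 0.07, adjusted p = 0.000268), was called in all 14 alternatives, and had groups that lay far apart beside their own spread. PHC1 (ENSG00000111752.10, chr12:8913843-8941467) read only 3.78 and 4.05 CPM in sgNeg and 2.80 and 2.34 CPM in sgNPM1A. Its log2 fold change of -0.61 (SE 0.18, adjusted p = 0.0318) was lost as a call in DESeq2 (adjusted p = 0.153) and whenever a single library was left out (adjusted p from 0.0505 to 0.256). In addition 40.5% of the words of PHC1 occur in its pseudogene PHC1P1 and 18.0% of its exon bases overlap M6PR on the opposite strand, so the PHC1 value is uncertain. PHC3 had -0.28 (adjusted p = 0.0866) with no overlap between groups. The order of the 3 per length was PHC1, PHC3, PHC2, and PHC2 held between 95.7% and 96.4% of the family in every library, so the fall of PHC2 changed the sum of the family and hardly its make-up.

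Of the 5 subunits of variant PRC1, 2 fell and 3 were not called, so that 40% were called beside 20.8% of all tested genes. BCOR (ENSG00000183337.16, chrX:40051246-40177277), the corepressor that scaffolds the PCGF1 complex, had the largest change of all 36 genes. It read 134.8 and 108.4 CPM in sgNeg and 72.5 and 75.1 CPM in sgNPM1A. The sgNeg libraries differed from each other more than the sgNPM1A libraries did, and both were well above them. The log2 fold change was -0.72 (SE 0.10, adjusted p = 0.000236), a 1.65-fold lower level, and lay between -0.87 and -0.55 when single libraries were left out. Its homolog BCORL1 read 27.3 and 22.0 CPM in sgNeg and 23.9 and 22.7 CPM in sgNPM1A, which overlap (log2 fold change -0.08, 95% interval -0.32 to 0.16).

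YAF2 (ENSG00000015153.14, chr12:42157104-42238248), which with RYBP stimulates the ligase and takes the place of a CBX protein, read 18.1 and 19.1 CPM in sgNeg and 13.3 and 13.6 CPM in sgNPM1A. Its log2 fold change was -0.47 (SE 0.10, adjusted p = 0.00569), with no overlap, and it was called in all 14 alternatives. RYBP, its paralog, had overlapping groups (21.4 and 18.3 beside 17.7 and 21.0 CPM) and a log2 fold change of -0.04 (95% interval -0.30 to 0.22). KDM2B, the CpG-binding subunit that brings the PCGF1 complex to CpG islands, had 0.10 (95% interval -0.11 to 0.32). The YAF2 share of CPM per kb in this pair was 59.8% and 64.8% in sgNeg and 57.0% and 53.4% in sgNPM1A. Which of the pair was the more abundant in sgNeg turned with the length used, since YAF2 had 42.4% on average with the union of exons.

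The PCGF1 complex thus contained a gene that rose, PCGF1, and genes that fell, BCOR and YAF2. The ratio of PCGF1 to BCOR in CPM per kb was 1.72 and 2.31 in the sgNeg libraries and 4.21 and 4.29 in the sgNPM1A libraries. The sgNeg ratios stood well below the sgNPM1A ratios. BCOR made up 84.2% of the summed CPM per kb of BCOR and BCORL1 in each sgNeg library and 76.6% and 78.1% in the sgNPM1A libraries. USP7 and SKP1, which are also subunits of this complex, were not called (0.12 and 0.04, adjusted p = 0.242 and 0.742).

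None of the 3 PR-DUB genes of the 36 was called in edgeR, DESeq2 or limma-trend, and 1 (ASXL1) had an unadjusted p under 0.05. BAP1, the deubiquitinase itself, read 162.6 and 153.8 CPM in sgNeg and 162.8 and 163.5 CPM in sgNPM1A (log2 fold change 0.04, 95% interval -0.10 to 0.19). The sgNPM1A libraries were both marginally above the sgNeg libraries, and the interval lies inside the fold threshold. ASXL1, which activates BAP1, had -0.14 (95% interval -0.28 to -0.0015, adjusted p = 0.130) and ASXL2 had -0.11 (95% interval -0.36 to 0.13). Per length ASXL1 took between 86.8% and 89.7% of the pair in all libraries.

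**Figure D4:**
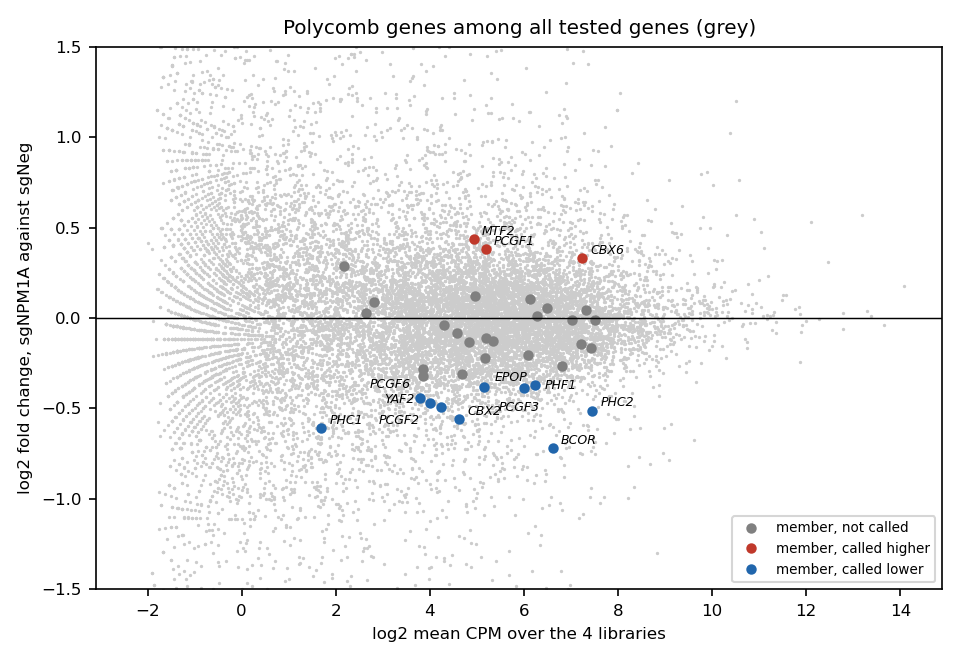
Log2 fold change (vertical axis, shown from -1.5 to 1.5, with 517 genes outside) against log2 mean CPM over the 4 libraries (horizontal axis) for all 15718 tested genes (light grey) and the 36 Polycomb genes (large points). The 13 called Polycomb genes, named, lie between log2 fold changes of -0.72 and 0.43, well inside the range of the other genes.

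In each of the 4 pairs of Polycomb genes within 259 kb of each other, both genes had log2 fold changes of the same sign. Both genes of each pair also had groups that did not overlap, as had 63.1% of all tested genes. Whether neighbouring genes moved together more than other genes was not tested. EPOP and PCGF2, 58.9 kb apart on chromosome 17, both fell. RING1 and PHF1, 198 kb apart on chromosome 6, had -0.21 (not called) and -0.37 (called), and CBX6 and CBX7, 259 kb apart on chromosome 22, had 0.33 (called) and 0.29 (not called). CBX2 (-0.56, called) and CBX8 (-0.31, adjusted p = 0.0267, just short of the fold threshold) lie side by side.

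Of 43 other Polycomb genes, further subunits, readers and enzymes that act against the marks, 39 could be tested: 1 rose and 5 fell, so that 15.4% were called beside 20.8% of all genes, and the median log2 fold change was -0.06. The gene that rose was KDM1B, a histone H3K4 demethylase, with 13.5 and 11.4 CPM in sgNeg and 16.5 and 18.6 CPM in sgNPM1A (log2 fold change 0.50, adjusted p = 0.0107). Its groups did not overlap, but the call was lost without sgNeg 2 (0.38, adjusted p = 0.0523) and without sgNPM1A 2 (0.41, adjusted p = 0.0824). KDM6B, a demethylase of H3K27me3, fell from 60.2 and 61.2 CPM to 42.6 and 45.7 CPM (log2 fold change -0.46, adjusted p = 0.00120) and was called in all 14 alternatives. Its paralog KDM6A had -0.14 (adjusted p = 0.272).

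MGA, the scaffold of the PCGF6 complex, read 57.4 ± 3.38 CPM in sgNeg and 43.7 ± 1.76 CPM in sgNPM1A (SD, n = 2). MGA fell by 0.39 (log2; adjusted p = 0.00435), without overlap, in the same direction as PCGF6, and it was not called without sgNPM1A 2 (-0.35, adjusted p = 0.0640). Further subunits of that complex were not called: MAX (-0.07), E2F6 (-0.18), TFDP1 (-0.06), L3MBTL2 (-0.06), CBX3 (0.07), HDAC1 (-0.04), HDAC2 (0.11) and WDR5 (0.04). As a variant PRC1 it also holds RYBP (-0.04, not called) or YAF2 (-0.47, called lower), both described above. HCFC1, a host cell factor that binds BAP1, read 323.9 and 290.4 CPM in sgNeg and 239.2 and 248.0 CPM in sgNPM1A (log2 fold change -0.33, adjusted p = 0.00542). It was lower in both sgNPM1A libraries, and its call was lost without sgNeg 1 (-0.25) or sgNPM1A 1 (-0.31, adjusted p = 0.0750). MBD6, a PR-DUB subunit, and SFMBT2, a methyl-lysine reader, each had -0.33 (adjusted p = 0.00393 and 0.00564), at the fold threshold. Their calls were lost without sgNeg 2 (-0.30 and -0.26), without sgNPM1A 2 (-0.30 and -0.29) and with protein-coding genes only (-0.32 each). OGT (0.23, adjusted p = 0.0379) and RSF1 (-0.29, adjusted p = 0.0224) passed the p threshold and not the fold threshold, and AUTS2, SCML1, ASXL3 and EZHIP were too low to be tested.

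Of 10 classical Polycomb targets, 5 were expressed enough to be tested and 1 was called, a share of 20% beside 20.8% of all tested genes. CDKN2A, a cell-cycle inhibitor locus that PRC1 and PRC2 repress in many cells, rose from 7.52 ± 0.73 CPM to 39.3 ± 0.45 CPM (SD, n = 2; log2 fold change 2.39, adjusted p = 8.18e-08). CDKN2B (-0.18), CDKN1C (-0.03), GATA6 (-0.45, adjusted p = 0.127) and PAX6 (0.11) were not called, and CCND2, GATA4, SOX1, SOX17 and NEUROG2 had at most 9 counts in any library.

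Of 4 markers of monocyte or granulocyte maturation 3 rose, ITGAM by 2.33, FCGR1A by 1.71 and CSF1R by 1.22 on the log2 scale, and their summed level with CD14 was 58.9 and 68.8 CPM in sgNeg and 132.0 and 143.9 CPM in sgNPM1A. Of 7 myeloid markers 5 could be tested. MPO (1.77), ANPEP (0.49) and SPI1 (0.48) rose, while CD33 (0.06) and PTPRC (-0.05) were not called. The 5 together summed to 786 to 828 CPM in sgNeg and 1029 to 1033 CPM in sgNPM1A. Of this sum SPI1 alone held 473 CPM on average in sgNeg and 660 CPM in sgNPM1A. Of 43 S phase genes 1 rose and 7 fell (median -0.16, 38 of them negative), and of 54 G2M genes 4 rose and 3 fell (median 0.02). The share called was 18.6% of the S phase and 12.96% of the G2M genes, beside 20.8% of all tested genes. Markers of other cell types summed to 4.09 and 3.94 CPM in sgNeg and 3.09 and 3.31 CPM in sgNPM1A. The part of maturation and of the cell cycle in the changes of the Polycomb genes was not tested.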

How the data were processed

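RNA-Seq was done on 4 libraries of OCI-AML3 cells, 2 with sgNeg and 2 with sgNPM1A, grouped by their labels. The reads were mapped with STAR to hg38, and the authors deposited unscaled read counts, a row per Ensembl gene. The counting program, annotation release and strand setting are not given in the sources used here. From the counts, genes were filtered with filterByExpr (minimum count 10) and scaled by TMM (factors 0.985 to 1.015), and tested with the edgeR quasi-likelihood F test, two-sided, with Benjamini-Hochberg adjustment over 15718 genes (R 4.3.3, edgeR 4.0.16, limma 3.58.1, DESeq2 1.42.0). Residual degrees of freedom were 2. The procedure was tested on simulated data. Total counts per library were 25069484 to 28276391.

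The Polycomb genes and all other lists were chosen with earlier results of these data known. By rule all 36 genes are named, with values per library for called genes and for EZH1, EZH2, RING1, RNF2 and BAP1. Cell-cycle lists came from Seurat 5.3.0. Gene positions and promoters are from RefSeq on GRCh38.p14. Lengths, overlaps and shared 50-base words came from GENCODE gene models on GRCh37, without coordinates. CPM per kb used the canonical transcript. A gene of the other Polycomb list is not reported by name here. No promoter windows were used for CBX2, CBX8, EPOP and BAP1. Alternatives were other scalings, filters, tests, gene sets, thresholds, blocks and leaving out each library.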

Additional observations from a re-analysis of the deposited data

How the results depend on the processing

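Over 14 alternative analyses, 5 of the 13 called Polycomb genes (MTF2, CBX2, PHC2, YAF2 and BCOR) were called in the same direction in all, 20 genes were never called, and JARID2, RNF2 and CBX8 were called in some alternatives only. No called gene changed sign. With a threshold of a 2-fold change the counts were 0 higher and 0 lower for the Polycomb genes, 498 higher and 502 lower for all genes, and 0 and 0 for the other Polycomb genes, by construction of a stricter threshold. Leaving out single libraries gave 2 to 3 Polycomb genes higher and 5 to 9 lower, a median log2 fold change from -0.19 to -0.14, and 0 to 2 of the other Polycomb genes higher and 2 to 5 lower. With no fold threshold 2 of the other Polycomb genes were higher, and with protein-coding genes only 3 were lower. The median of the Polycomb genes was -0.18 with library size only, a scaling that moved the median of all genes to -0.04. The causes of these shifts were not tested.

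The log2 fold changes of 11 genes that were not called changed sign. With library size only SUZ12 was -0.027 and BMI1 -0.010, and with protein-coding genes only PHF19 was 0.00045. When each library was left out in turn, EZH2 ran from -0.00026 to 0.12, SUZ12 from -0.059 to 0.092, RBBP4 from -0.12 to 0.11, AEBP2 from -0.25 to 0.0046, PHF19 from -0.057 to 0.042, BMI1 from -0.018 to 0.078, PCGF5 from -0.031 to 0.20, KDM2B from -0.028 to 0.25, RYBP from -0.16 to 0.080, BCORL1 from -0.23 to 0.086 and ASXL2 from -0.28 to 0.085. Leaving out a library leaves a group with 1 library, assumed to vary like the other group.

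The libraries share replicate numbers, but nothing links them, and the deviations of same-numbered libraries correlated at -0.13 over genes, and at -0.52 over the 8856 genes above 10 CPM. With a replicate block 3 Polycomb genes were higher and 10 lower, and 1637 and 1604 of all genes. With the pairing crossed, an alternative chosen after seeing the data, 3 and 10 Polycomb genes and 1955 and 1918 of all genes were called. With lengths from the union of exons, also added after seeing the data, the order within 8 of 9 families was the same, and 40 of 52 mean shares moved by more than the spread between libraries. The depth set wide intervals for the scarcest genes, PHC1, CBX7, BMI1 and PCGF5.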
